A study of Homo sapiens with 15 samples.

Results

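The genes described here encode the machinery that copies chromosomal DNA, from the proteins that mark and license replication origins to those that build and run the fork. There were 51 of them, chosen by gene symbol from a list of replication proteins, by a rule that reads no measured value but was drawn up with earlier results of these data known, out of 58676 genes in the deposited count table. All 51 were among the 14461 genes with enough counts to be tested. RNA was sequenced from PATU-8988T, a human line of pancreatic cancer cells per the labels. The cells were exposed to 0.1% DMSO, to 100 nM THZ1 for 4 h or 24 h, or to 100 nM YKL-5-124 for 4 h or 24 h, with 3 libraries in each of the 5 groups. THZ1 is a covalent inhibitor of CDK7 that also acts on CDK12 and CDK13, and YKL-5-124 is a covalent inhibitor more selective for CDK7. The labels give the DMSO libraries no time, so the same 3 served as controls at both times and the comparisons with DMSO share them. The labels do not say that the libraries came from separate cultures, and p-values therefore measure only the spread between these libraries, which may be technical.

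Eukaryotic cells license origins in G1, when the origin recognition complex, CDC6 and CDT1 load the ring-shaped MCM2-7 helicase onto DNA. At the start of S phase the kinase CDC7 with its activator DBF4 phosphorylates the loaded helicase, CDC45 and GINS join it, and polymerases, the PCNA clamp and its RFC loader assemble behind it. Many of these genes are transcribed at the G1-to-S transition under E2F factors, whose release from RB depends on cyclin-dependent kinases, and CDK7 both activates those kinases and phosphorylates RNA polymerase II. In RNA from whole cultures, fewer cells in S phase and less RNA per cell cannot be told apart.

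Total counts ranged from 15567057 to 22869590 per library. The deposited values are raw counts, and levels are given here as CPM (counts scaled to library size), adjusted between libraries by TMM. That method sets a trimmed average of the changes to 0. Under it the median log2 change of all genes after 24 h of THZ1 was still -0.37 against DMSO. The share of all counts that fell in the 51 genes was 0.582% ± 0.00940 with DMSO (SD, n = 3 in each group). With THZ1 it was 0.534% ± 0.0118 at 4 h and 0.216% ± 0.00587 at 24 h, and with YKL-5-124 it was 0.562% ± 0.0133 at 4 h and 0.425% ± 0.0118 at 24 h. In the same order of groups, 86 cytosolic ribosomal protein genes took a mean of 10.7%, 12.8%, 22%, 11.1% and 7.92% of the counts. With so large a shift the choice of scaling decides whether a modest change reads as higher or lower, so each direction below holds for TMM unless stated, and ratios between genes, which no scaling can alter, are given beside the main contrasts. DMSO replicate 2 was the lowest of its group for 36 of the 51 genes. The epithelial keratins KRT8 (791 to 3097 CPM) and KRT18 (238 to 538 CPM) were abundant in every library, whereas KRT19 stayed at or below 0.204 CPM and KRT7 at or below 4.39 CPM. Of the other epithelial and ductal markers, EPCAM ran from 10.1 to 68.4 CPM and SOX9 from 0.285 to 7.82 CPM. CDH1 ran from 0.140 to 6.76 CPM, and CLDN4 stayed at or below 0.417 CPM. Summed acinar, islet and immune marker lists each stayed at or below 0.306 CPM, and the endothelial list at or below 1.76 CPM. The fibroblast list summed to 1.55 to 2.44 CPM in DMSO and 2.54 to 8.68 CPM after 24 h of THZ1, and its part in the results was not tested.

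In DMSO, levels compared per kilobase of exon spanned the whole machinery. PCNA, the sliding clamp, stood first at 170 ± 26.6 CPM per kb (SD, n = 3), followed by the helicase subunits MCM7 at 98.3 ± 10.2, MCM3 at 67.8 ± 2.57 and MCM4 at 66.3 ± 3.84 CPM per kb. MCM3 and MCM4 did not differ beyond their spread. The flap endonuclease FEN1 (63.6 ± 8.39 CPM per kb) and MCM4 also overlapped. Among the 6 helicase subunits, which assemble in equal numbers, MCM5 was the lowest at 24.1 ± 2.52 CPM per kb. That place rests on the exonic length used as divisor, 7338 bases for MCM5 and 4118 for MCM6. In CPM, MCM5 (177 ± 18.5) and MCM6 (170 ± 2.88) overlapped. The lowest replicative polymerase genes per kilobase were POLE and POLA2. POLE, the leading-strand catalytic subunit, stood at 3.94 ± 1.05 CPM per kb over an exonic length of 16609 bases. POLA2, the accessory subunit of polymerase alpha, stood at 2.70 ± 0.402 CPM per kb. RNASEH2A, the catalytic subunit of RNase H2, was near the limit of detection, with 0.577, 0.542 and 0.590 CPM in the DMSO libraries. The spans of 18 members, from gene start to gene end, overlap another tested gene, and overlap of exons was not measured. Without a stated strand setting, reads from stretches that both genes of such a pair hold cannot be told apart. These include MCM2 with TPRA1, MCM7 with AP4M1 and MIR25, FEN1 with FADS2 and TMEM258, and RPA1 with SMYD4. POLA1 with the pseudogene EEF1B2P3 and RNASEH2A with HOOK2 are also among them. The levels of these members, the low one of RNASEH2A included, are therefore uncertain to that extent. A further limit is that 7 members, PCNA among them, have pseudogenes named after them in the table. These pseudogenes held 0 counts over all 15 libraries, except DBF4P1 with 30. How reads matching several places were handled is not stated.

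Promoters were examined because several members fell together after both compounds. RefSeq windows of the GRCh38.p14 assembly were found for 45 of the 51 genes, and the 250 bases before each start were searched on both strands for the E2F site in the forms TTTCCCGC, TTTCGCGC, TTTGGCGC and TTTGCCGC. At least 1 form stood in 15 of the 45 members (33.3%), against 4.51% of 14464 protein-coding genes with a window and 2.79% of all 35116 windows. The box CCAAT was found in 57.8% of members and 40.5% of genes, GGGCGG in 75.6% and 63.3%, and TTTGAA in 2.22% and 14%. The stretches printed next hold such sites, in capitals, read 5′ to 3′ on the strand of the gene. They all lie outside the span of their gene in the count table. After 24 h of THZ1 under TMM, MCM3, MCM6 and PCNA were called lower and POLA1 higher, although each carries a site of the same family. In MCM6, 2 opposed forms overlap at each of 2 places.
MCM6 chr2:135876564-135876615, minus strand: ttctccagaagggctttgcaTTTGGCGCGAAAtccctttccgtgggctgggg
MCM6 chr2:135876502-135876553, minus strand: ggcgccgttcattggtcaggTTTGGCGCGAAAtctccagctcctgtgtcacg
MCM3 chr6:52284889-52284936, minus strand: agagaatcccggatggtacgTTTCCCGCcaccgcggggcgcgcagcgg
PCNA chr20:5126654-5126701, minus strand: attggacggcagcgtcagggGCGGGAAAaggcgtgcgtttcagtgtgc
POLA1 chrX:24693761-24693808, plus strand: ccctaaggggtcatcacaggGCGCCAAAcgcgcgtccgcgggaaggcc
After 24 h of YKL-5-124, 11 of the 15 members with a site passed the test as lower, with a median log2 change of -0.90. Of the 30 without a site, 18 did, with a median of -0.51, beside 12.7% of all tested genes called lower. After 24 h of THZ1 the counts were 3 higher and 11 lower of 15 with a site and 6 higher and 21 lower of 30 without. Of all tested genes, 32.3% were called higher and 44.0% lower in that comparison. The split by site was counted under TMM only. These matches describe letters in the windows, not bound sites.

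After 24 h, replication genes were called in both directions with THZ1 under TMM scaling, and only as lower with YKL-5-124. Genes were tested by quasi-likelihood in edgeR, with p-values adjusted by Benjamini-Hochberg over the 14461 genes, and a gene was called at an adjusted p under 0.05. After 4 h of THZ1, 14 members rose and 12 fell relative to DMSO, beside 16.9% of all tested genes called higher and 25.1% called lower. After 24 h of THZ1, 10 rose and 34 fell, beside 32.3% and 44.0% of all genes, with a median log2 change of -1.54 for the members and -0.37 for all genes. Of the 34, 22 fell by more than 2 on the log2 scale, and the share of all genes past that size was not counted. After 4 h of YKL-5-124 edgeR called 0 members in either direction, beside 0.0553% of genes higher and 0.463% lower. At an unadjusted p under 0.05, 0 members were higher and 7 lower, and DESeq2 called 3 lower, which were ORC2, GINS3 and CDC7. After 24 h of YKL-5-124, 33 fell and 0 rose, by DESeq2 35 and 0, beside 8.92% of genes higher and 12.7% lower, and 0 members were higher at an unadjusted p under 0.05. The members' median was then -0.62, against -0.04 for all genes.

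**Figure D1:**
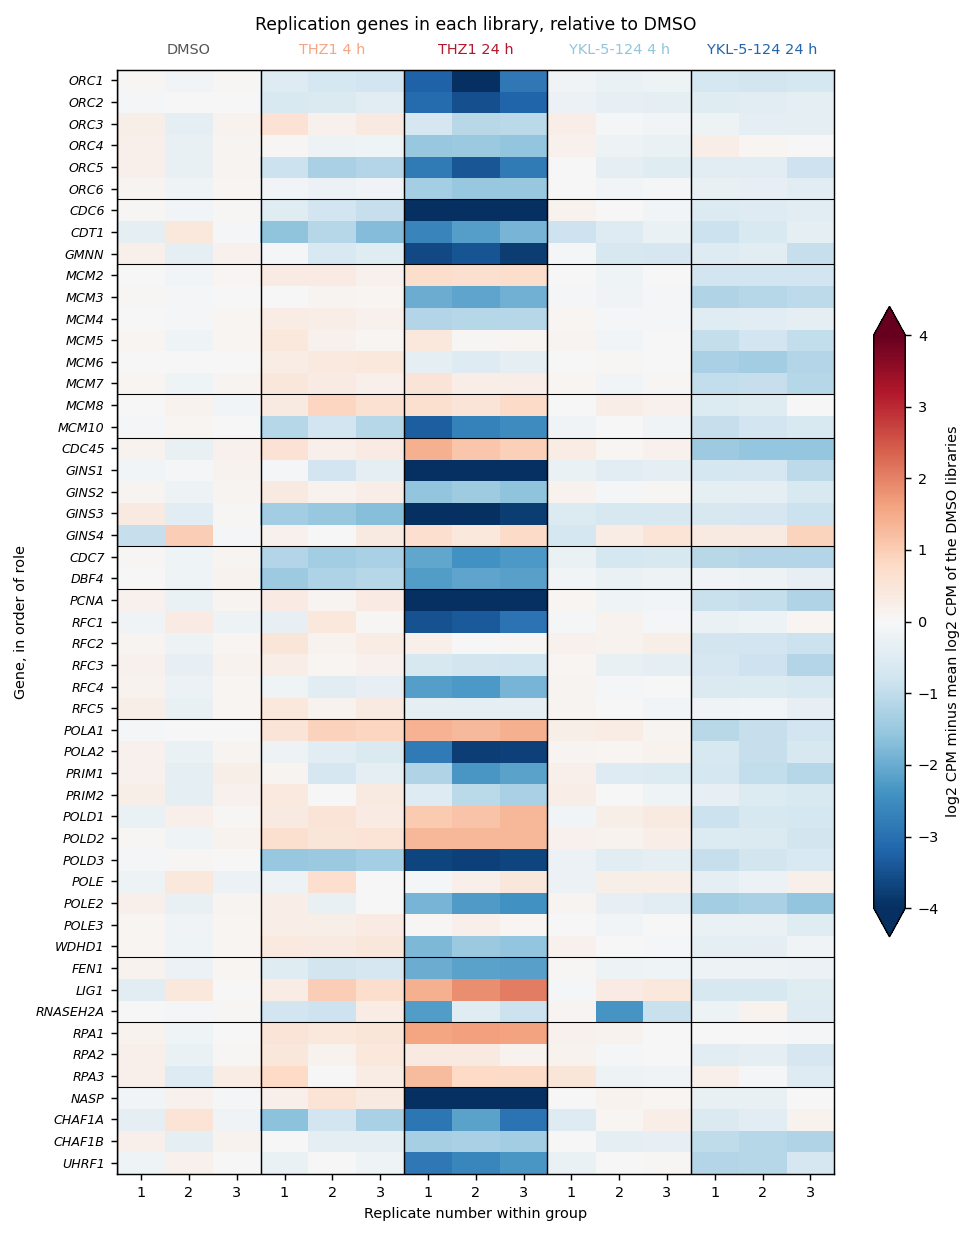
Heat map of the 51 genes (rows, in order of role) in the 15 libraries (columns, by group and replicate number), coloured by log2 CPM minus the mean log2 CPM of the DMSO libraries, with the scale ending at -4 and 4. The THZ1 24 h columns hold both the deepest falls (CDC6, GINS1, PCNA, NASP) and, under TMM scaling, rises (LIG1, RPA1, POLA1), while the YKL-5-124 24 h columns are mostly shallow falls.

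The size of these counts depends on the scaling. At 24 h of THZ1 more members were called lower than higher under every scaling run. Library totals moved the median gene by -1.12 relative to TMM and left 3 members higher (RPA1, LIG1 and POLD2) and 43 lower, while the ribosomal protein reference shifted it by -2.18 and left 0 higher and 50 lower, with all 51 estimates below 0. At 24 h of YKL-5-124 the shifts were 0.15 and 0.59, and the members called lower numbered 28 and 8, with 5 called higher under the ribosomal reference. The 8 that then remained lower were MCM6, MCM7, CDC45, CDC7, PCNA, RFC3, POLE2 and CHAF1B. At 4 h of THZ1 the shifts were -0.26 and -0.51, with 3 and 0 members higher and 19 and 22 lower, against 14 and 12 under TMM. RLE, another scaling, and DESeq2 moved values the other way. Each gave 18 higher and 12 lower at 4 h of THZ1, and 14 higher and 32 lower at 24 h. By RLE the THZ1 24 h changes of MCM6 and RFC5 were only -0.09 and -0.08, against -0.42 and -0.40 under TMM. The 4 h count of higher members also went to 8 with no filter on low counts, 7 when only the compared groups were fitted and 22 with a covariate for the length slope of each library, and to 9 without DMSO replicate 2 or without THZ1 4 h replicate 3.

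**Figure D2:**
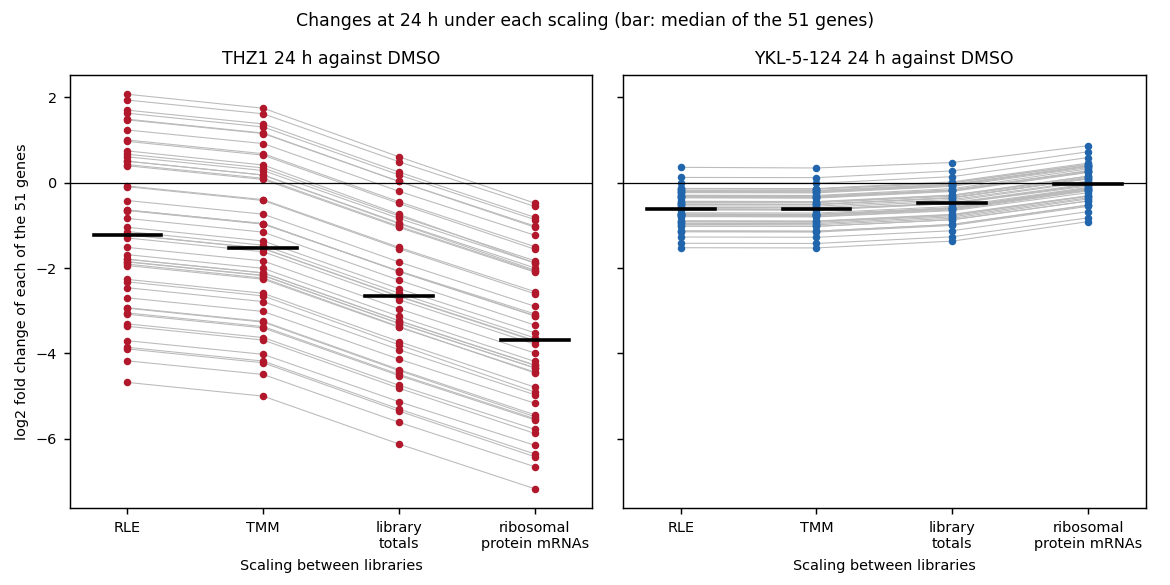
Each point is the log2 change of 1 of the 51 genes against DMSO at 24 h, joined by lines across 4 ways of scaling the libraries, with a bar at the median of the 51 genes. For THZ1 the median runs from -1.22 (RLE) through -1.54 (TMM) and -2.66 (library totals) to -3.70 (ribosomal protein mRNAs), and for YKL-5-124 from -0.62 (TMM) to -0.03 (ribosomal protein mRNAs).

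Origin recognition and licensing genes fell under THZ1, and all 9 were lower at 24 h under every scaling run. The origin recognition complex, ORC1 to ORC6, is the platform on which the helicase is loaded. ORC1 stood at 23.9, 21.4 and 23.6 CPM in DMSO, 16, 14 and 13.4 after 4 h of THZ1, and 2.42, 1.12 and 3.13 after 24 h. Its libraries did not overlap between these groups, and it fell by 0.67 ± 0.19 (log2, SE) at 4 h (adjusted p = 0.00974) and by 3.37 ± 0.23 at 24 h (adjusted p = 2.58e-09). At 24 h the changes were -3.25 for ORC2, -3.02 for ORC5, -0.96 for ORC3, -1.54 for ORC4 and -1.47 for ORC6, so the subunits of 1 complex fell by unequal amounts. At 4 h, 3 of the 6 had fallen (ORC1, ORC2 and ORC5), and ORC3 stood at 0.35 ± 0.17 without passing the test. After 24 h of YKL-5-124, 4 of the 6 passed as lower, with ORC1 at 14.1, 13.7 and 14.2 CPM and a fall of 0.71 ± 0.19 (adjusted p = 0.0135). Under the ribosomal reference 5 of these 6 estimates were positive. Of the 4 calls, ORC6 was lost without DMSO replicate 1 or 3 or YKL-5-124 24 h replicate 3, ORC1 without YKL-5-124 24 h replicate 2 (adjusted p = 0.0506), and ORC5 (adjusted p = 0.0498) without DMSO replicate 1 or 3, THZ1 4 h replicate 3, YKL-5-124 4 h replicate 2 or 3, or any YKL-5-124 24 h replicate.

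CDC6, an ATPase that works with CDT1 to load the helicase, showed the deepest fall of the 51 genes. It stood at 74.6, 66.4 and 75.0 CPM in DMSO, 51, 42.0 and 38.1 after 4 h of THZ1, and 2.17, 2.45 and 2.09 after 24 h, which is 3.11% of the DMSO mean. The log2 change was -0.72 ± 0.12 at 4 h (adjusted p = 0.000152) and -5.00 ± 0.15 at 24 h (adjusted p = 3.38e-12). With YKL-5-124 at 24 h it stood at 49.4, 50 and 52.3 CPM, with a log2 change of -0.51 ± 0.12 (adjusted p = 0.00572), whose sign turned under the ribosomal reference, to 0.10 above DMSO. CDT1 fell early, from 32.9, 55.9 and 40.2 CPM in DMSO to 13.9, 19.1 and 12.6 after 4 h of THZ1, a log2 change of -1.50 ± 0.24 (adjusted p = 0.000119), and it reached -2.24 ± 0.25 at 24 h. Its change after 24 h of YKL-5-124, -0.62 ± 0.23, did not pass (adjusted p = 0.0647). GMNN encodes geminin, which binds CDT1 and blocks relicensing. It stood at 105, 69.9 and 102 CPM in DMSO and did not pass after 4 h of THZ1, then fell to 7.49, 8.27 and 6.57 CPM at 24 h, a log2 change of -3.63 ± 0.23. Loader and inhibitor were thus both low at the late time, and under TMM only CDT1 and CDC6 had passed the test at 4 h. By the other references GMNN also passed as lower at 4 h. Its log2 change was then -0.65 by library totals (adjusted p = 0.00747) and -0.91 by the ribosomal reference (adjusted p = 2.28e-05). The fall of GMNN after 24 h of YKL-5-124, 0.64 ± 0.20, lost its call when DMSO replicate 1 or 3, or YKL-5-124 24 h replicate 1 or 3, was left out.

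Under TMM the 6 subunits of the MCM2-7 ring went different ways by 24 h of THZ1 and all fell by 24 h of YKL-5-124. By library totals and by the ribosomal reference, all 6 estimates at 24 h of THZ1 were negative, by unequal amounts. MCM2 stood at 204, 190 and 217 CPM in DMSO, 257, 254 and 231 after 4 h of THZ1, and 329, 316 and 334 after 24 h, so the 3 groups did not overlap. Its log2 change was 0.28 ± 0.09 at 4 h (adjusted p = 0.0159) and 0.68 ± 0.09 at 24 h (adjusted p = 3.03e-06) under TMM, and the 24 h value became -0.45 by library totals and -1.50 by the ribosomal reference. MCM3, another subunit of the ring, stood at 255, 237 and 250 CPM in DMSO and at 62.2, 57.5 and 65.0 after 24 h of THZ1, a log2 change of -2.01 ± 0.09. The ratio of MCM3 to MCM2 per kilobase went from 1.64 ± 0.0750 in DMSO to 0.253 ± 0.00859 after 24 h of THZ1 (SD, n = 3), and to 1.26 ± 0.0723 after 24 h of YKL-5-124. The pairs set against each other in such ratios were chosen after their values were seen, so these ratios are descriptions.

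MCM7 also rose under TMM, from 454, 380 and 460 CPM in DMSO to 613, 515 and 518 after 24 h of THZ1, a log2 change of 0.35 ± 0.11 that became -0.78 by library totals and -1.83 by the ribosomal reference. MCM5 stood at 188, 156 and 187 CPM in DMSO and 235, 183 and 185 after 24 h of THZ1, groups that overlapped, and did not pass (0.18 ± 0.13, adjusted p = 0.202). MCM4 and MCM6 rose at 4 h, by 0.25 ± 0.08 and 0.37 ± 0.08, and fell by 1.16 ± 0.08 and 0.42 ± 0.08 at 24 h. At the earlier time all 6 estimates were positive under TMM, 3 of 6 by library totals and 0 of 6 by the ribosomal reference. The 4 h calls of MCM2, MCM4 and MCM7 were lost when DMSO replicate 2 was left out, those of MCM4 and MCM7 also without THZ1 4 h replicate 1 or 2, and that of MCM4 without DMSO replicate 1, whereas MCM6 was called in each of these fits. All 6 subunits fell by 24 h of YKL-5-124, from -0.45 ± 0.08 for MCM4 to -1.28 ± 0.08 for MCM6, and under the ribosomal reference 5 of the 6 estimates stayed negative, MCM4 being the exception at 0.15. MCM6 stood at 173, 168 and 169 CPM in DMSO and at 69.7, 65.5 and 74.7 after 24 h of YKL-5-124 (adjusted p = 6.22e-07), with no overlap.

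**Figure D3:**
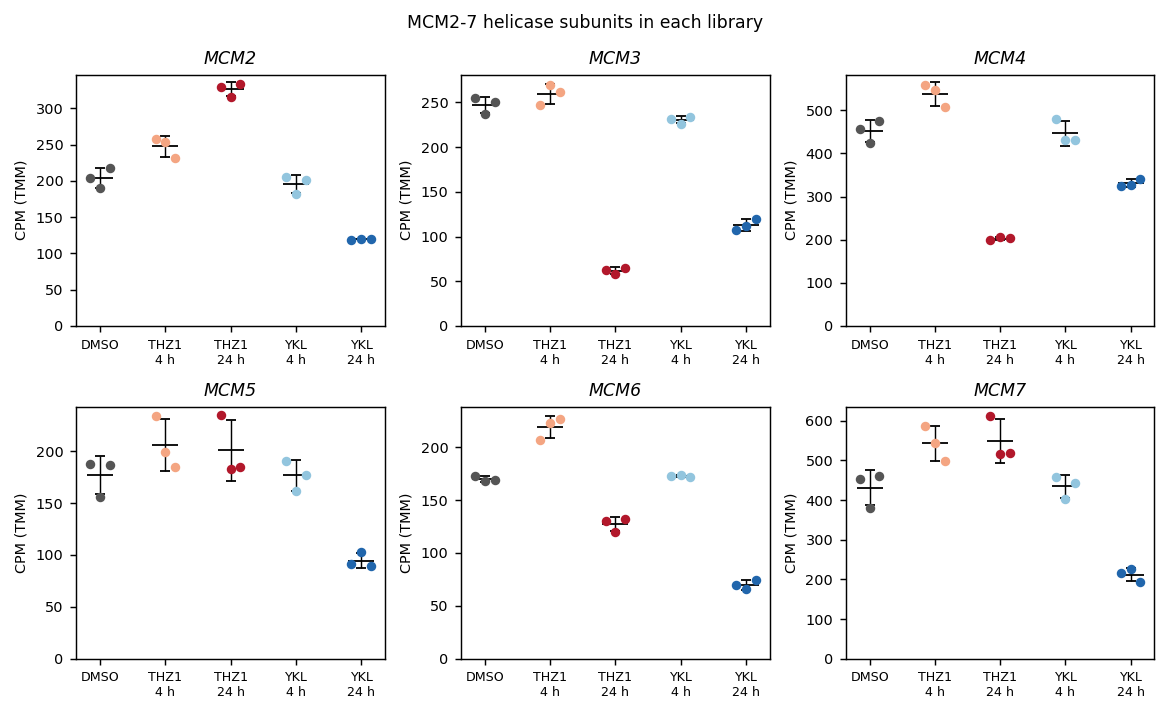
CPM (TMM scaling, axes from 0) of the 6 MCM2-7 subunits in each of the 15 libraries, with the mean and SD of each group of 3. At THZ1 24 h MCM2 lies at 316 to 334 CPM, above DMSO, and MCM3 at 57.5 to 65.0 CPM, below it, while at YKL-5-124 24 h all 6 lie below DMSO.

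The other MCM genes also went opposite ways with THZ1 under TMM. MCM8, which acts with MCM9 in homologous recombination and is not part of the ring, stood at 69.9, 79.4 and 65.6 CPM in DMSO, 91.6, 129 and 110 after 4 h of THZ1, and 111, 103 and 122 after 24 h. Its log2 change was 0.62 ± 0.16 at 4 h and 0.65 ± 0.16 at 24 h (adjusted p = 0.00156), and the later value became -0.49 by library totals and -1.56 by the ribosomal reference. MCM10, a scaffold needed for helicase activation, fell from 63.0, 70.3 and 67.6 CPM to 30.2, 39.0 and 30.1 at 4 h and 6.88, 10.3 and 11.8 at 24 h of THZ1. These are log2 changes of -1.02 ± 0.16 (adjusted p = 9.65e-05) and -2.79 ± 0.17. MCM10 fell at 24 h of YKL-5-124 by 0.77 ± 0.15 and MCM8, at -0.33 ± 0.16, did not pass.

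CDC45 and GINS bind the ring to form the active helicase, and with THZ1 their mRNAs diverged. CDC45 stood at 49.6, 36.0 and 49.8 CPM in DMSO, 66.6, 51.5 and 56.2 at 4 h and 119, 96.3 and 85.5 at 24 h of THZ1, and 16.4, 15.2 and 15.3 at 24 h of YKL-5-124. The 24 h groups of the compounds lay on opposite sides of every DMSO library. CDC45 rose by 1.15 ± 0.15 under THZ1 (adjusted p = 4.97e-06), a value of 0.03 by library totals and -1.02 by the ribosomal reference, and fell by 1.53 ± 0.16 under YKL-5-124 (adjusted p = 1.38e-05), the deepest fall of the 51 genes with that compound. GINS1 stood at 63.4, 67.1 and 76.2 CPM in DMSO and 3.62, 3.47 and 4.28 after 24 h of THZ1, a fall of 4.18 ± 0.19. The ratio of GINS1 to CDC45 per kilobase was 1.09 ± 0.206 in DMSO, 0.0272 ± 0.00709 after 24 h of THZ1 and 1.77 ± 0.220 after 24 h of YKL-5-124.

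Among the other GINS subunits, GINS3 was already low at 4 h of THZ1, at 10.9, 10.1 and 8.89 CPM against 36.7, 21.7 and 30.0 in DMSO. That was the largest early fall of the 51 genes, -1.56 ± 0.17 (adjusted p = 3.25e-06), and at 24 h GINS3 was at 1.69, 1.63 and 2.09 CPM, a change of -4.02 ± 0.21. GINS2 stood at 116, 93.7 and 118 CPM in DMSO, was not called at 4 h of THZ1, and fell at 24 h to 36.7, 40.4 and 35.3 CPM (-1.54 ± 0.11). With YKL-5-124 at 24 h the log2 change of GINS2 was -0.47 ± 0.11, and its sign turned under the ribosomal reference, to 0.13 above DMSO. GINS4 scattered from 4.48 to 16.9 CPM within DMSO alone and was not called against DMSO with either compound. Without DMSO replicate 2, which held the highest value, GINS4 was called higher at 24 h of THZ1 (1.07, adjusted p = 0.00968) and of YKL-5-124 (1.00, adjusted p = 0.0406).

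CDC7 and DBF4, the kinase that fires licensed origins and its activator, were among the earliest to fall. CDC7 stood at 59.1, 51 and 61.0 CPM in DMSO and 25.2, 21.6 and 23.2 after 4 h of THZ1, a log2 change of -1.29 ± 0.13 (adjusted p = 2.01e-06), and DBF4 changed by -1.27 ± 0.12. At 24 h of THZ1 they reached -2.26 ± 0.14 and -2.17 ± 0.13. YKL-5-124 separated them. After 24 h CDC7 was at 26.1, 25.4 and 25.2 CPM, a fall of 1.16 ± 0.13 (adjusted p = 3.91e-05), while DBF4 was at 42.1, 40 and 36.7 CPM against 47.3, 41.4 and 51.5 in DMSO and did not pass (-0.24 ± 0.11, adjusted p = 0.153).

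PCNA, the clamp that tethers polymerases and many other factors to DNA, was not called at 4 h of THZ1 and fell deeply by 24 h. It stood at 278, 206 and 269 CPM in DMSO, 314, 268 and 315 after 4 h of THZ1, and 12.6, 10.0 and 10.9 after 24 h. The change at 4 h, 0.25 ± 0.13, did not pass (adjusted p = 0.137), and the change at 24 h was -4.49 ± 0.16 (adjusted p = 5.70e-12), leaving 4.45% of the DMSO mean. In the YKL-5-124 24 h libraries PCNA was at 134, 129 and 107 CPM, a fall of 1.02 ± 0.13 (adjusted p = 9.84e-05). Of the 5 subunits of the clamp loader, RFC1, the large one, fell by 3.27 ± 0.22 at 24 h of THZ1 and RFC4 by 2.11 ± 0.13, whereas RFC2 stood at 0.08 ± 0.12 and did not pass. RFC3 went from 136, 96.3 and 133 CPM to 76.8, 73.0 and 69.8, a fall of 0.74 ± 0.16, and RFC5 fell by 0.40 ± 0.13, a call lost without DMSO replicate 1. Under YKL-5-124 at 24 h RFC2 fell by 0.79 ± 0.12, RFC3 by 0.90 ± 0.16 and RFC4 by 0.59 ± 0.12, while RFC1 (-0.15 ± 0.19) and RFC5 (-0.21 ± 0.13) did not pass.

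Subunits of the same polymerase went opposite ways at 24 h of THZ1 under TMM. POLA1 encodes the catalytic subunit of polymerase alpha, which extends primers at origins and on the lagging strand. It stood at 67.9, 69.6 and 70.8 CPM in DMSO, 98.2, 131 and 125 at 4 h and 181, 172 and 188 at 24 h of THZ1, and 32.0, 37.0 and 40.6 at 24 h of YKL-5-124, with no overlap between any of these groups. The log2 change was 0.76 ± 0.12 at 4 h of THZ1 (adjusted p = 0.000103), 1.38 ± 0.12 at 24 h (adjusted p = 4.12e-08) and -0.93 ± 0.12 at 24 h of YKL-5-124 (adjusted p = 9.05e-05). By library totals the THZ1 24 h value was 0.25 and did not pass, and by the ribosomal reference it was -0.81. POLA2, its accessory partner, stood at 17.1, 12.8 and 16.5 CPM in DMSO and 2.17, 1.12 and 1.15 after 24 h of THZ1, a log2 change of -3.40 ± 0.23. The POLA2 to POLA1 ratio per kilobase went from 0.247 ± 0.0384 to 0.00909 ± 0.00365 at 24 h of THZ1 and was 0.283 ± 0.0525 at 24 h of YKL-5-124. The primase subunits PRIM1 and PRIM2, of the same complex, fell by 1.83 ± 0.32 and 0.96 ± 0.20 at 24 h of THZ1.

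Polymerase delta, which copies the lagging strand, showed the same pattern. POLD3 stood at 44.4, 47.3 and 46.9 CPM in DMSO, 16.2, 16.4 and 18 after 4 h of THZ1, and 3.62, 3.47 and 3.65 after 24 h. Its log2 change was -1.45 ± 0.11 at 4 h (adjusted p = 7.41e-08) and -3.69 ± 0.13 at 24 h. The catalytic subunit POLD1 rose from 45, 61.9 and 55.6 CPM to 111, 119 and 134 after 24 h of THZ1, by 1.16 ± 0.14, and POLD2 from 137, 118 and 145 CPM to 331, 331 and 330, by 1.31 ± 0.10, under TMM, values of -1.04 and -0.86 by the ribosomal reference. The POLD3 to POLD1 ratio per kilobase was 0.763 ± 0.0998 in DMSO, 0.211 ± 0.0227 and 0.0262 ± 0.00234 after 4 h and 24 h of THZ1, and 0.751 ± 0.0561 after 24 h of YKL-5-124. All 3 subunits fell under YKL-5-124 at 24 h, POLD1 by 0.74 ± 0.14, POLD2 by 0.62 ± 0.10 and POLD3 by 0.74 ± 0.11. For polymerase epsilon, POLE ranged from 54.9 to 85.7 CPM within DMSO and was not called against DMSO in any group. Its accessory subunit POLE2 stood at 32.2, 23 and 30.3 CPM in DMSO, 7.73, 5.92 and 5.32 at 24 h of THZ1, and 10.8, 11.6 and 9.43 at 24 h of YKL-5-124. The falls were 2.18 ± 0.21 and 1.42 ± 0.19 (adjusted p = 1.62e-07 and 0.000153). POLE3, a histone-fold subunit, rose by 0.27 ± 0.09 at 4 h of THZ1 under TMM, a call lost without DMSO replicate 2 or THZ1 4 h replicate 3, and did not pass at 24 h, and WDHD1, which links the helicase to polymerase alpha, rose by 0.40 ± 0.11 under TMM at 4 h and was 1.62 ± 0.12 lower than DMSO at 24 h.

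**Figure D4:**
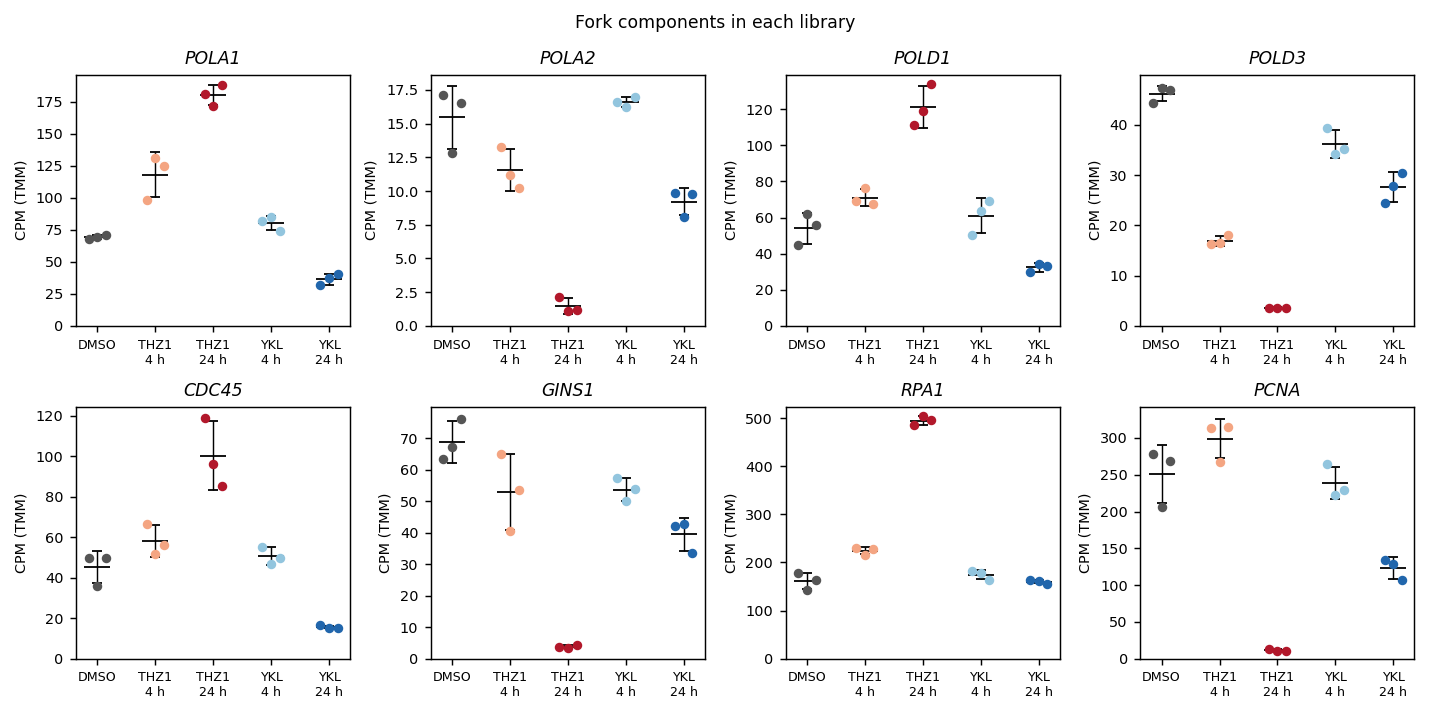
CPM (TMM scaling, axes from 0) of 8 fork genes in each library, with the mean and SD of each group of 3, chosen after their values were seen to set partners side by side. At THZ1 24 h POLA1, POLD1, CDC45 and RPA1 lie above DMSO under TMM while POLA2, POLD3, GINS1 and PCNA lie near the floor of their axes.

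LIG1 and RPA1 had the largest rises of the 51 genes at 24 h of THZ1 under TMM. LIG1, the ligase that joins Okazaki fragments, stood at 17.8, 32.2 and 23.6 CPM in DMSO, 29.3, 46.7 and 38.8 after 4 h of THZ1 and 63.3, 85.6 and 98.4 after 24 h. The last group lay above all others, with a log2 change of 1.75 ± 0.23 (adjusted p = 3.84e-06) that became 0.61 by library totals and -0.48 by the ribosomal reference, while the 4 h call (0.64 ± 0.22, adjusted p = 0.0303) was lost without DMSO replicate 1 or 3, THZ1 4 h replicate 2 or 3, or THZ1 24 h replicate 2. FEN1, which trims the flaps before LIG1 seals them, went the other way, from 173, 134 and 165 CPM to 112, 93.0 and 97.5 at 4 h and 39.1, 35.6 and 34.6 at 24 h of THZ1 (-0.64 ± 0.11 and -2.11 ± 0.12). Neither passed at 24 h of YKL-5-124, with LIG1 at -0.63 ± 0.22 (adjusted p = 0.0565) and FEN1 at -0.23 ± 0.11. RNASEH2A was not called in any comparison at its level of under 1 CPM.

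RPA1, RPA2 and RPA3 coat single-stranded DNA. RPA1 was at 177, 143 and 164 CPM in DMSO, 230, 216 and 227 at 4 h and 485, 504 and 495 at 24 h of THZ1, and 163, 161 and 156 at 24 h of YKL-5-124. It rose by 0.48 ± 0.09 and 1.62 ± 0.09 under THZ1 (adjusted p = 0.000558 and 3.33e-10), values of -0.03 and -0.56 by the ribosomal reference, and did not pass under YKL-5-124 (-0.01 ± 0.09). RPA3 rose by 0.92 ± 0.27 at 24 h of THZ1 under TMM, a value of -0.20 by library totals and -1.23 by the ribosomal reference, and RPA2 (0.29 ± 0.13, adjusted p = 0.0610) did not pass. The ratio of PCNA to RPA1 per kilobase fell from 5.78 ± 0.387 in DMSO to 0.0842 ± 0.0115 at 24 h of THZ1 and was 2.88 ± 0.271 at 24 h of YKL-5-124.

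The genes that restore chromatin behind the fork all fell at 24 h of THZ1. NASP, a chaperone of histones H3 and H4, stood at 127, 154 and 132 CPM in DMSO, 157, 202 and 177 after 4 h of THZ1, and 6.16, 7.66 and 8.24 after 24 h. It rose by 0.37 ± 0.13 at 4 h under TMM (adjusted p = 0.0269), a call lost without DMSO replicate 1 or 3 or THZ1 4 h replicate 2 or 3, and fell by 4.22 ± 0.15 at 24 h (adjusted p = 6.85e-12). In the YKL-5-124 24 h libraries it was at 112, 112 and 137 CPM and did not pass (-0.19 ± 0.13). CHAF1A, the large subunit of the chromatin assembly factor CAF-1, fell by 1.24 ± 0.30 at 4 h and 2.65 ± 0.34 at 24 h of THZ1, although DMSO ranged from 19.1 to 35.9 CPM. CHAF1B, its partner, did not pass at 4 h and fell by 1.37 ± 0.17 at 24 h. UHRF1, which recruits the maintenance DNA methyltransferase, went from 85.4, 110 and 96.0 CPM to 13.2, 15.8 and 19.3 after 24 h of THZ1 (-2.59 ± 0.18) and 42.6, 44.2 and 60.5 after 24 h of YKL-5-124 (-0.99 ± 0.16).

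**Figure D5:**
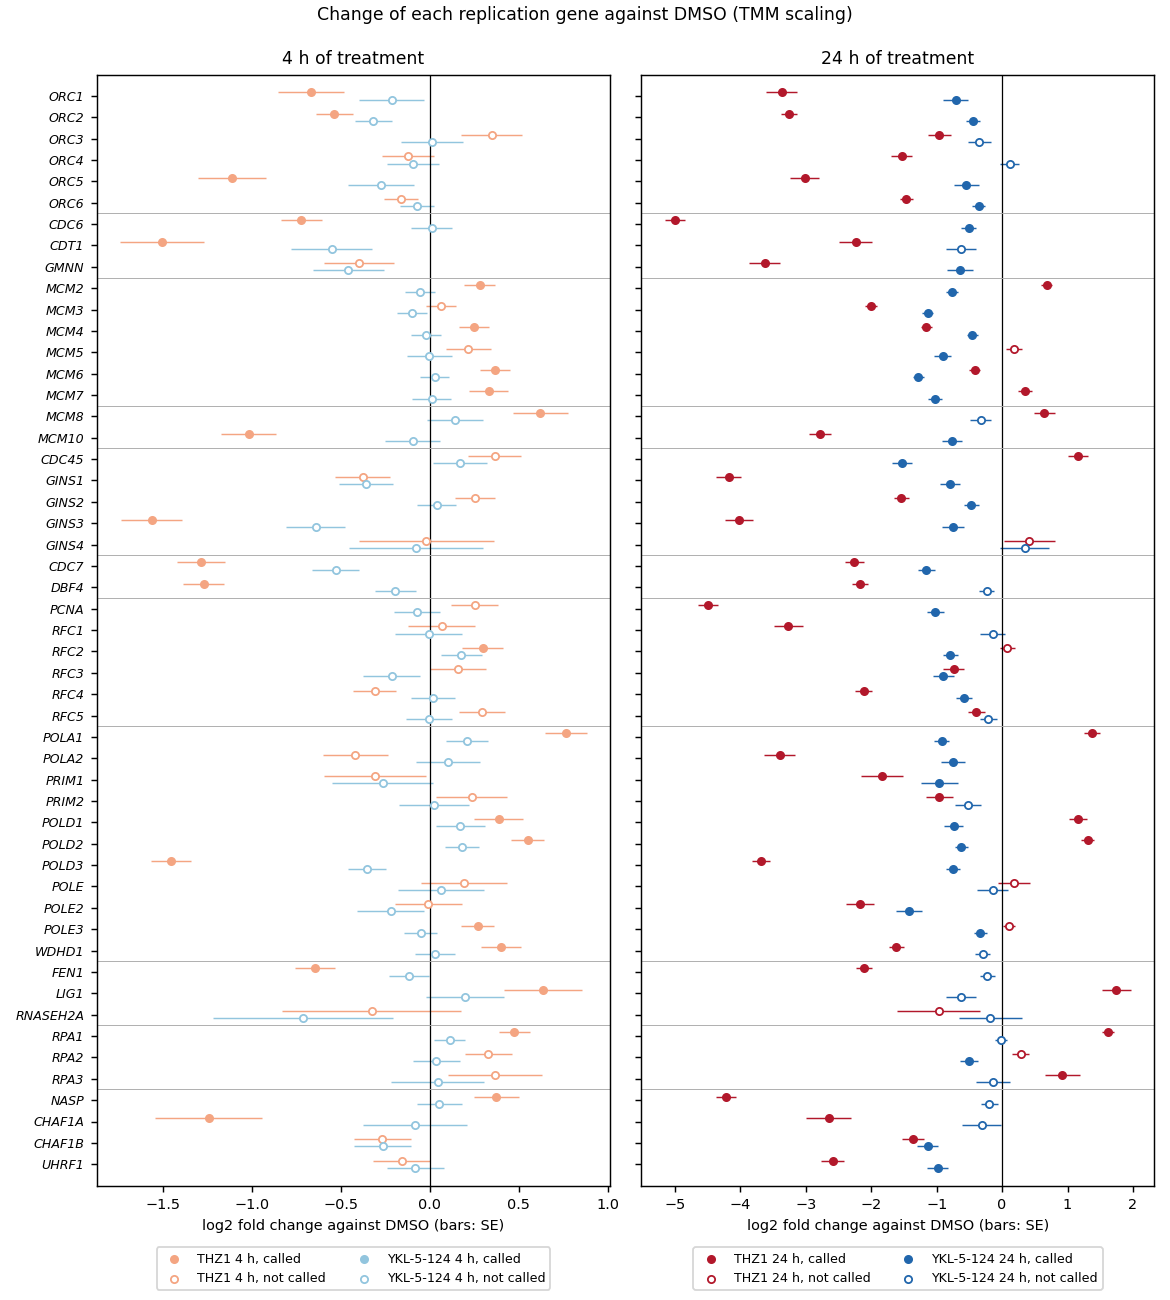
Log2 fold change against DMSO (TMM scaling) of the 51 genes at 4 h and 24 h, with SE bars, filled where the adjusted p was under 0.05 and grey lines between roles. THZ1 points at 24 h run from -5.00 (CDC6) to 1.75 (LIG1), YKL-5-124 points at 24 h from -1.53 (CDC45) to 0.35 (GINS4), and the open YKL-5-124 points at 4 h are all uncalled.

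The compounds were compared directly at the same dose and time, in 51 genes at each of 2 times, with p-values adjusted over all genes tested. At 4 h THZ1 was higher than YKL-5-124 in 10 members and lower in 11, beside 11.4% and 21.9% of all genes. By library totals the counts were 0 and 15 and by the ribosomal reference 0 and 19, and the count of higher members was 4 with no filter and 21 with the length slope covariate. The 2 largest differences downward and the 2 largest called upward were CHAF1A (-1.16 ± 0.30, adjusted p = 0.00790), POLD3 (-1.10 ± 0.11), POLA1 (0.55 ± 0.12, adjusted p = 0.00200) and MCM8 (0.48 ± 0.16), the last 2 under TMM. In size, DBF4 (-1.08), CDT1 (-0.95), GINS3 (-0.92), MCM10 (-0.92), ORC5 (-0.84), CDC7 (-0.76) and CDC6 (-0.73) also lay beyond POLA1. Leaving out YKL-5-124 4 h replicate 2 or replicate 3 cut the 10 to 6. At 24 h THZ1 was higher in 15 and lower in 29, beside 31.8% and 44.1% of all genes, with 6 and 40 by library totals and 0 and 48 by the ribosomal reference. CDC45 differed most upward, at 2.68 ± 0.16 (adjusted p = 6.66e-10), ahead of LIG1 at 2.38 ± 0.23 (adjusted p = 1.58e-07) and POLA1 at 2.30 ± 0.12 (adjusted p = 1.96e-10). CDC6 differed most downward, at -4.49 ± 0.15 (adjusted p = 4.92e-12), followed by NASP at -4.03 ± 0.15 (adjusted p = 8.25e-12). The 7 members that did not pass at 24 h included RFC3, with a difference of 0.16 and a 95% interval of -0.18 to 0.50, and CHAF1B, at -0.23 with an interval of -0.59 to 0.13, so modest differences in either direction remain possible for both.

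The comparisons of each compound with DMSO share their control libraries, so their calls are set side by side gene by gene and differences are taken from the direct test. MCM2, MCM7, CDC45, POLA1, POLD1 and POLD2 were called higher with THZ1 under TMM and lower with YKL-5-124 at 24 h, and the direct difference ran from 1.37 (MCM7) to 2.68 (CDC45). ORC3, ORC4, CDT1, DBF4, RFC1, WDHD1, FEN1, NASP and CHAF1A were called lower than DMSO with THZ1 and not with YKL-5-124, and the direct test called each lower with THZ1. PRIM2 and RFC5 had the same calls against DMSO without passing the direct test. For PRIM2 the difference was -0.44 with a 95% interval of -0.88 to -0.01 (adjusted p = 0.0596). MCM5, RFC2, POLE3 and RPA2 were called lower with YKL-5-124 and not with THZ1, and the direct test called each higher with THZ1 under TMM.

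Between 4 h and 24 h of THZ1, 34 members fell and 7 rose, beside 35.7% and 31.4% of all genes. The 34 included MCM4, MCM6, WDHD1 and NASP, which had been called higher than DMSO at 4 h under TMM, and NASP moved by -4.59 ± 0.15 (adjusted p = 9.38e-12). Between 4 h and 24 h of YKL-5-124, 29 fell and 0 rose by edgeR, beside 11.9% and 9.22% of all genes, with 0 higher at an unadjusted p under 0.05 and 0 by DESeq2. Under the ribosomal reference 12 were instead called higher and 5 lower, and the members' median went from -0.50 to 0.19. MCM6 (-1.31 ± 0.08), CDC45 (-1.70 ± 0.16) and POLA1 (-1.14 ± 0.12) were among the falls, whereas ORC1 (-0.50 ± 0.19) and GINS3 (-0.11 ± 0.17) did not pass. The change over time differed between the compounds in 39 members, with 12 higher and 27 lower for THZ1, beside 26.6% and 31.0% of all genes. NASP (-4.35 ± 0.20) and PCNA (-3.80 ± 0.20) were the furthest down and CDC45 (2.49 ± 0.22) and LIG1 (1.94 ± 0.31) the furthest up.

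A second list of 34 replication genes outside the 51, of which 32 could be tested, held fork protection, checkpoint and accessory factors. With THZ1, 2 rose and 8 fell at 4 h, and 4 rose and 23 fell at 24 h; with YKL-5-124, 0 were called by edgeR at 4 h and 12 fell at 24 h. At 4 h of THZ1 these are 6.25% higher and 25% lower, beside 16.9% and 25.1% of all genes, and at 24 h 12.5% and 71.9%, beside 32.3% and 44.0%. At 24 h of YKL-5-124, 37.5% were lower, beside 12.7% of all genes. TIMELESS, which with TIPIN forms the fork protection complex, rose by 2.0 ± 0.11 at 24 h of THZ1 under TMM while TIPIN fell by 2.43 ± 0.25, and after 24 h of YKL-5-124 both fell, by 0.78 ± 0.11 and 1.64 ± 0.22. ETAA1, an activator of the ATR kinase, was the lowest of the list at 4 h of THZ1 (-4.39 ± 0.21), and TICRR, which brings CDC45 to origins, changed by -2.70 ± 0.34. RIF1, a regulator of origin timing, fell by 4.02 ± 0.24 at 24 h of THZ1, and POLE4, the histone-fold partner of POLE3, rose by 2.39 ± 0.18 under TMM.

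Correlations of the change with gene size are given as a description. Across genes, which are not independent replicates, the Pearson correlation of the change at 24 h of THZ1 with log2 exonic length was 0.08 in the 51 members and -0.23 in all 14461 genes, and with the genomic span 0.01 and -0.19. At 24 h of YKL-5-124 the correlations with exonic length were 0.30 and -0.07.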

How the data were processed

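Total RNA from PATU-8988T cells (15 libraries) was sequenced; for RNA selection, strand setting and multiply matching reads, nothing is stated (not given in the sources used here). Values that the authors deposited are raw counts by gene for all libraries in 1 table, with gene symbols, positions and exonic lengths on GRCh38. The aligner STAR 2.6.1d, the counter featureCounts 1.5.0-p3 and DESeq2 1.24.0 are named, without settings, per the submitters' processing notes. The exonic length column, in bases per the file headers, was used only for levels per kilobase.

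Groups came from the labels. Genes were kept by edgeR's filterByExpr (minimum count 10, minimum total 15), scaled by TMM and tested with edgeR 4.0.16 (glmQLFit, glmQLFTest; R 4.3.3) in 1 fit over all 15 libraries with a term per group, adjusted by Benjamini-Hochberg over 14461 genes, threshold 0.05. With 3 libraries against 3, an exact permutation test could not go below p = 0.1, so none is reported. Alternatives were RLE factors, library totals, a reference of 86 ribosomal protein genes, DESeq2 1.42.0, no filter, only the compared groups, a replicate block, a length slope covariate and leaving out each library. Every pair of libraries within a group differed by more than sampling noise (the lowest chi-square divided by its degrees of freedom was 4.28). The named genes were 21 fixed members plus those with the largest changes in each comparison, 27 in all, and all 51 are described by role. Members, roles and lists were chosen with earlier results of these data known. Promoter windows came from RefSeq, GRCh38.p14.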

Additional observations from a re-analysis of the deposited data

Results flagged for a closer look

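The change from 4 h to 24 h differed between THZ1 and YKL-5-124 in 22 of the 27 named genes, by the test of the difference itself (edgeR's interaction term, TMM scaling), beside 26.6% of all genes called higher and 31.0% lower. Some of the 27 were named for large changes, NASP, PCNA, CDC45 and LIG1 for this difference itself, so the count describes these genes and supports nothing further. Values are log2, positive where the change over time was more positive with THZ1. Below 0 were NASP (-4.35), PCNA (-3.80), CDC6 (-3.76), GMNN (-3.05), GINS3 (-2.35), ORC1 (-2.21), POLD3 (-1.84), UHRF1 (-1.53), FEN1 (-1.36), GINS2 (-1.29), CHAF1A (-1.18), MCM10 (-1.10), ORC6 (-1.01) and POLE2 (-0.97). Above 0 were CDC45 (2.49), LIG1 (1.94), POLA1 (1.75), RPA1 (1.26), MCM2 (1.11), MCM7 (1.05), MCM5 (0.87) and MCM6 (0.52). The largest adjusted p among them was 0.0349, for CHAF1A. In MCM2, MCM5, MCM6, MCM7, POLA1 and CDC45 YKL-5-124 libraries fell from 4 h to 24 h; over the same span with THZ1 under TMM, MCM2, POLA1 and CDC45 rose, MCM6 fell, and MCM5 and MCM7 did not pass.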

How the results depend on the processing

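Counts are of members, and comparisons are as in the report. By library totals, higher members numbered 3 at THZ1 4 h, 3 at THZ1 24 h, 0 between compounds at 4 h, 6 at 24 h, 1 between THZ1 times, 1 between YKL-5-124 times and 5 in the interaction, and lower members 19 at THZ1 4 h and 1 at YKL-5-124 4 h. By the ribosomal protein reference, higher members numbered 0 at both THZ1 times, between compounds at both times, between THZ1 times and in the interaction, 5 at YKL-5-124 24 h and 12 between YKL-5-124 times. Lower members then numbered 22 at THZ1 4 h, 8 at YKL-5-124 24 h, 19 and 48 between compounds, 5 between YKL-5-124 times and 47 in the interaction. RLE gave 16 and DESeq2 17 higher between compounds at 4 h, and DESeq2 3 lower at YKL-5-124 4 h. With no filter, 8 were higher at THZ1 4 h and 4 between compounds at 4 h, and with only the compared groups 7 at THZ1 4 h. The length slope covariate gave 22 and 21 higher and 7 lower at YKL-5-124 4 h. The causes of these moves were not tested. Leaving out each library in turn gave 9 to 16 higher at THZ1 4 h, 0 to 1 lower at YKL-5-124 4 h, 0 to 1 higher at YKL-5-124 24 h (GINS4) and 6 to 13 higher between compounds at 4 h.

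Reversals are listed here for the 27 named genes in the comparisons with DMSO and between compounds. Called values that reversed by library totals were, at THZ1 24 h, MCM2 -0.45, MCM7 -0.78 and MCM8 -0.49, and between compounds at 24 h, MCM5 -0.19, MCM6 -0.42 and MCM8 -0.31. By the ribosomal reference, again among the named genes, they were, at THZ1 4 h, MCM2 -0.23, MCM7 -0.17, RPA1 -0.027, NASP -0.14 and MCM6 -0.14. At THZ1 24 h they were MCM2 -1.50, MCM7 -1.83, CDC45 -1.02, POLA1 -0.81, LIG1 -0.48, RPA1 -0.56 and MCM8 -1.56, and at YKL-5-124 24 h ORC6 0.24, CDC6 0.10 and GINS2 0.13. Between compounds at 4 h they were MCM2 -0.086, MCM7 -0.10, RPA1 -0.061 and MCM6 -0.076, and at 24 h MCM2 -1.33, MCM5 -1.69, MCM7 -1.40, CDC45 -0.10, POLA1 -0.49, LIG1 -0.40, RPA1 -1.15, MCM6 -1.93 and MCM8 -1.84. Reversals in the changes over time and in the interaction were not listed individually, apart from LIG1 at -0.44 in the interaction by that reference. There the ribosomal reference shifted the median gene by -2.34 and left 0 members higher. The positive interaction values of POLA1 (1.75), RPA1 (1.26), MCM2 (1.11) and MCM7 (1.05) under TMM are smaller than that shift. Members outside the named genes also reversed, among them RPA3 at THZ1 24 h by library totals (-0.20), POLD1 (-1.04), POLD2 (-0.86) and RPA3 (-1.23) there by the ribosomal reference, and ORC2, ORC5, MCM4, RFC4, POLE3 and RPA2 at YKL-5-124 24 h by that reference.

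The labels number replicates in every group. Of 30 same-numbered pairs, 18 had deviations correlated above 0.1, with a range over all 30 of -0.427 to 0.487. The highest correlation between different numbers was 0.628. These correlations do not settle whether equal numbers mark pairs, and the main fit did not pair the libraries. The replicate block gave 18 higher and 16 lower at THZ1 4 h, 11 and 34 at THZ1 24 h, 1 lower at YKL-5-124 4 h and 37 lower at YKL-5-124 24 h, and 8 of 15 libraries correlated best with their own number. At under 1 CPM, differences in RNASEH2A were not detectable at this depth.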
